A study of Mus musculus with 17 samples.

Results

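The noncoding transcripts 1810026B05Rik, 2610203C22Rik, 4931413K12Rik, A730035I17Rik and 1700086L19Rik were followed through the hippocampus of mice given the convulsant pentylenetetrazol (PTZ). They are 5 of the 55471 genes of the count table, and all 5 had counts in every library. They were chosen because control libraries held more of them after PTZ, so their rise in controls is a description of how they were selected and is not tested here. The exact contrast of that choice is not stated, and results of both genotypes were known when it was made. The coding genes beside them were taken by position alone.

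The data were 17 RNA-seq libraries of total hippocampal RNA from C57BL/6 mice aged 3 to 6 months, with 5831992 to 18735643 counts per library. CBP-ifKOs carried Crebbp_flox together with Camk2a_creERT2, a Cre recombinase that tamoxifen switches on and that the Camk2a promoter restricts to forebrain excitatory neurons, so interneurons and glia of the same tissue kept an intact Crebbp gene. Controls were littermates that by the study's methods lacked creERT2, although their label names Camk2a_creERT2, and both genotypes received tamoxifen. Sal mice got saline and were never kindled, PTZ0 mice were kindled with repeated injections of 45 mg/kg PTZ and got saline a week later, and PTZ45 mice were kindled and got 45 mg/kg PTZ a week later. Hippocampi were taken 45 min after that last injection. Each group had 3 libraries apart from Control PTZ45, which had 2. Control Sal and Control PTZ0 shared a sequencing lane, as did Control PTZ45 and CBP-ifKO Sal, and CBP-ifKO PTZ0 and CBP-ifKO PTZ45.

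Long noncoding RNAs are transcribed and often spliced like messenger RNAs but are not translated into a known protein. Many lie next to, inside or opposite a coding gene, and some are known to act on that gene from the same chromosome. Neuronal firing turns on a first wave of immediate early genes such as Fos and Npas4, which encode transcription factors, and CBP, the lysine acetyltransferase encoded by Crebbp, is a coactivator of such stimulus-dependent transcription.

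The annotation placed each transcript close to or within a coding gene, on build GRCm38. 1810026B05Rik, which RefSeq names Chaserr, is a processed transcript at chr7:73539203-73558395 on the minus strand. It begins upstream of Chd2, a chromatin remodeler, on the same strand and overlaps the first part of it, and Chaserr is known as a repressor of Chd2 in cis. The starts of both genes were 16.6 kb apart, and 2628 exonic bases, 30.5% of the exonic length of 1810026B05Rik, were shared with Chd2. 2610203C22Rik spans chr1:9560832-9631175 on the minus strand, opposite Vxn, the gene of the neuronal differentiation protein vexin, and opposite Adhfe1, a mitochondrial alcohol dehydrogenase family enzyme. It shared 606 exonic bases with them, 12.3% of its exonic length. 4931413K12Rik, at chr11:75589665-75594771 on the minus strand, lies inside Pitpna, which encodes a phosphatidylinositol transfer protein, on the opposite strand and with no exon in common. A730035I17Rik, at chr5:98183121-98185984 on the minus strand, is antisense to Prdm8, a transcriptional regulator of the PRDM family, and shared 1411 exonic bases with it, 59.0% of its length. 1700086L19Rik, at chr12:74284242-74295945 on the plus strand, overlapped no gene. GENCODE calls it a transcribed unitary pseudogene and RefSeq a noncoding RNA, and the nearest coding gene was Syt16, a synaptotagmin, at a distance of 11 kb.

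**Figure D1:**
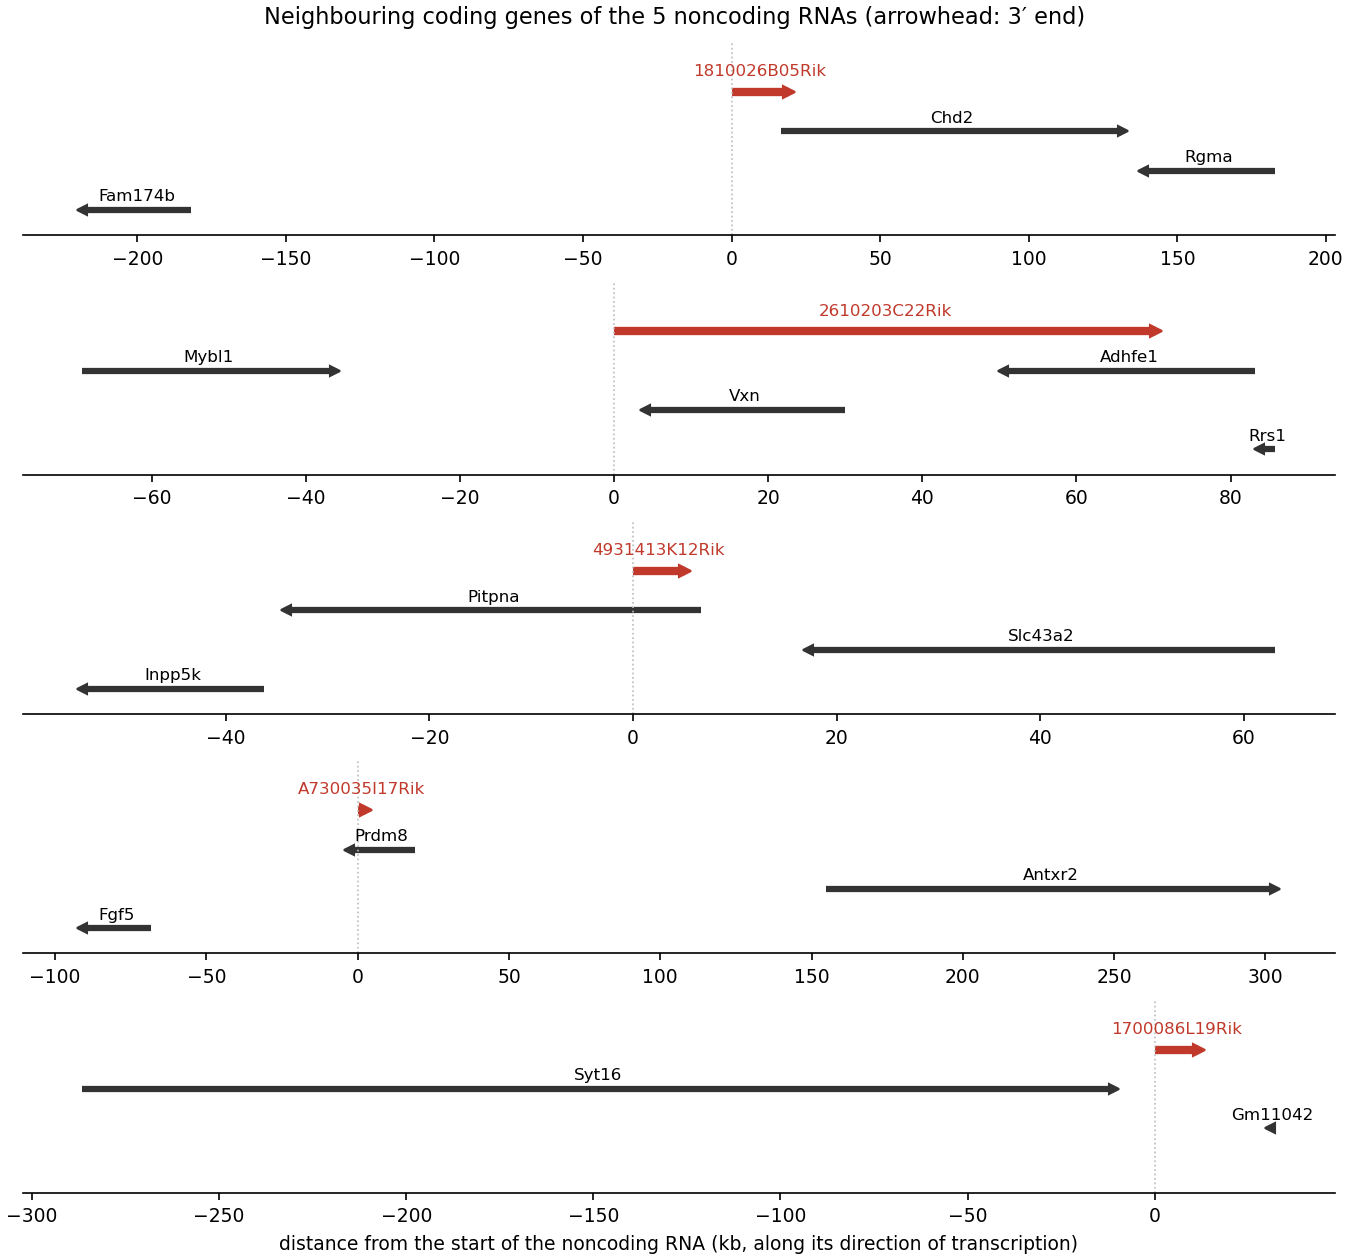
Each panel maps one noncoding RNA (red) and its neighbouring coding genes (black) by distance in kb from the start of the noncoding RNA along its direction of transcription, with an arrowhead at the end of each gene. Vxn, Adhfe1, Pitpna and Prdm8 run opposite to the noncoding RNA that they overlap, and Chd2 runs in the same direction, its start lying 16.6 kb downstream of the start of 1810026B05Rik.

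Whether the deposited counts used the strand is not given in the sources used here, so reads in the shared exons of 1810026B05Rik, 2610203C22Rik and A730035I17Rik may be split between both genes of a pair or credited to the wrong one. Reads of unspliced Pitpna could likewise fall on exons of 4931413K12Rik.

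The windows around the RefSeq start sites are printed because the 5 transcripts were raised together. They run from 250 bases before to 50 bases after the start (RefSeq, GRCm38.p6, strand of the gene), and 4 of the 5 were found in the table used. The windows of 1810026B05Rik (chr7:73558346-73558645, minus strand), 4931413K12Rik (chr11:75594751-75595050, minus strand), A730035I17Rik (chr5:98185935-98186234, minus strand) and 1700086L19Rik (chr12:74284026-74284325, plus strand) are given here, with capitals for a match to a searched motif.
1810026B05Rik: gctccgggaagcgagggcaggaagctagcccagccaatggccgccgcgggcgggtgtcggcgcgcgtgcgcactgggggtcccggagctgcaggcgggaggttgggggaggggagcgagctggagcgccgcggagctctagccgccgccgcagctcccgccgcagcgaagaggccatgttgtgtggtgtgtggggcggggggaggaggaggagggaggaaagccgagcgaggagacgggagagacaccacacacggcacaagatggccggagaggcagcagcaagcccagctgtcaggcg
4931413K12Rik: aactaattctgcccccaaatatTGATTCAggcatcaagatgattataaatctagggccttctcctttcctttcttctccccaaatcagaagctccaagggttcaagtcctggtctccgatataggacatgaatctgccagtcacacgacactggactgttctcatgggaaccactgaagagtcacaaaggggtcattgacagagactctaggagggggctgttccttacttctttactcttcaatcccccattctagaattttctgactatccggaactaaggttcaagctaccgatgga
A730035I17Rik: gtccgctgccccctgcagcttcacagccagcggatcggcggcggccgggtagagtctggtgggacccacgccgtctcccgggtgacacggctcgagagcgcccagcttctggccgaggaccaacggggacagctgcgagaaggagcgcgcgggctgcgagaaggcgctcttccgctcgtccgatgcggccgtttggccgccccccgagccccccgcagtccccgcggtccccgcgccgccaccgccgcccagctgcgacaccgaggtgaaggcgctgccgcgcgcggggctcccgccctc
1700086L19Rik: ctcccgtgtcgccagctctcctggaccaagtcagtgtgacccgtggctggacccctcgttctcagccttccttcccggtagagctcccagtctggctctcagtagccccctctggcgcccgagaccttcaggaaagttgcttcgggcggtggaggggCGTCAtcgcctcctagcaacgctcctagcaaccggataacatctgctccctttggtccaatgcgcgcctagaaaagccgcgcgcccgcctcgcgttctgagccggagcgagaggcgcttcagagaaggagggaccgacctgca

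Of these windows, 3 were rich in CpG dinucleotides, with 30 in 1810026B05Rik, 43 in A730035I17Rik and 25 in 1700086L19Rik, against a median of 7 over all 32851 windows of the table. The GC content was 72.3%, 76.0% and 64.0% in the same order, and 52.7% for the median window. The window of 4931413K12Rik stood apart, with a GC content of 45.3% and 4 CpG dinucleotides. Then 5 motifs of activity-dependent factors were searched on both strands. The AP-1 motif TGANTCA, at which dimers of Fos and Jun proteins bind, matched once, in 4931413K12Rik at 228 bases before the start, and 7.81% of all windows hold it. The letters TGACG, the core of the cAMP response element (CRE), matched once, in 1700086L19Rik on the opposite strand at 93 bases before the start, and 20.8% of all windows hold them. The full CRE TGACGTCA, which contains that core, the Egr motif GCGNGGGCG and the CArG box of SRF matched none of the 4 windows, and they are in 1.79%, 5.55% and 1.63% of all windows. A match is a description of the letters and not of binding.

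All 5 transcripts stood highest in the 2 Control PTZ45 libraries, and none of the other 15 libraries reached them. Values below are normalized counts, that is, counts divided by a size factor for depth, and log2 fold changes from DESeq2 with their standard error (SE). Where libraries of 2 groups are said not to overlap, the share of all genes that do so was not computed. Nothing is therefore read from a lack of overlap.

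For 1810026B05Rik, Control Sal libraries held 326, 374 and 354 normalized counts, Control PTZ0 held 304, 348 and 309, and Control PTZ45 held 555 and 615. In CBP-ifKOs it stood at 459, 378 and 378 in Sal, 398, 390 and 401 in PTZ0, and 477, 412 and 356 in PTZ45. Both Control PTZ45 libraries lay above all 15 others, of which the highest was CBP-ifKO PTZ45 replicate 1 at 477. The means were 352 ± 24 (SD, n = 3) in Control Sal, 585 ± 42.1 (SD, n = 2) in Control PTZ45 and 415 ± 60.7 (SD, n = 3) in CBP-ifKO PTZ45.

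4931413K12Rik, the transcript inside Pitpna, had the largest fold of the 5 in controls. Control Sal held 22.6, 30.8 and 21.7 normalized counts, Control PTZ0 held 22.8, 26.9 and 30.5, and Control PTZ45 held 73.4 and 80.4. CBP-ifKO libraries held 37.8, 20.8 and 24.4 in Sal, 36.5, 21 and 36.3 in PTZ0, and 32.6, 38.0 and 23.6 in PTZ45. The 15 libraries other than Control PTZ45 lay between 20.8 and 38.0, with the 3 CBP-ifKO PTZ45 libraries spread through that range.

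A730035I17Rik, antisense to Prdm8, followed the same order. It stood at 34.3, 33.2 and 39.8 normalized counts in Control Sal, 33.4, 34.0 and 41.9 in Control PTZ0, and 84.9 and 97.8 in Control PTZ45. CBP-ifKO libraries held 39.7, 31.1 and 31.8 in Sal, 39, 42.0 and 29.2 in PTZ0, and 38.9, 42.0 and 51.9 in PTZ45. The highest library outside Control PTZ45 was CBP-ifKO PTZ45 replicate 3 at 51.9.

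2610203C22Rik, opposite Vxn and Adhfe1, had groups that did not overlap between PTZ0 and Sal. Its Control Sal libraries held 32.7, 36.9 and 38.9 normalized counts, Control PTZ0 held 40.4, 62.1 and 48.6, and Control PTZ45 held 92.0 and 86.9. In CBP-ifKOs it stood at 40.4, 56.0 and 43.6 in Sal, 29.2, 30.5 and 38.6 in PTZ0, and 63.1, 46.0 and 43.6 in PTZ45. All Control PTZ0 libraries lay above all Control Sal libraries, whereas all CBP-ifKO PTZ0 libraries lay below all CBP-ifKO Sal libraries, and neither difference passed the test (below).

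1700086L19Rik, downstream of Syt16, had the smallest fold. Control Sal held 346, 284 and 327 normalized counts, Control PTZ0 held 322, 335 and 349, and Control PTZ45 held 455 and 462. CBP-ifKO libraries held 228, 322 and 335 in Sal, 289, 339 and 292 in PTZ0, and 301, 318 and 314 in PTZ45. The library at 228, CBP-ifKO Sal replicate 1, was the lowest of the 17.

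**Figure D2:**
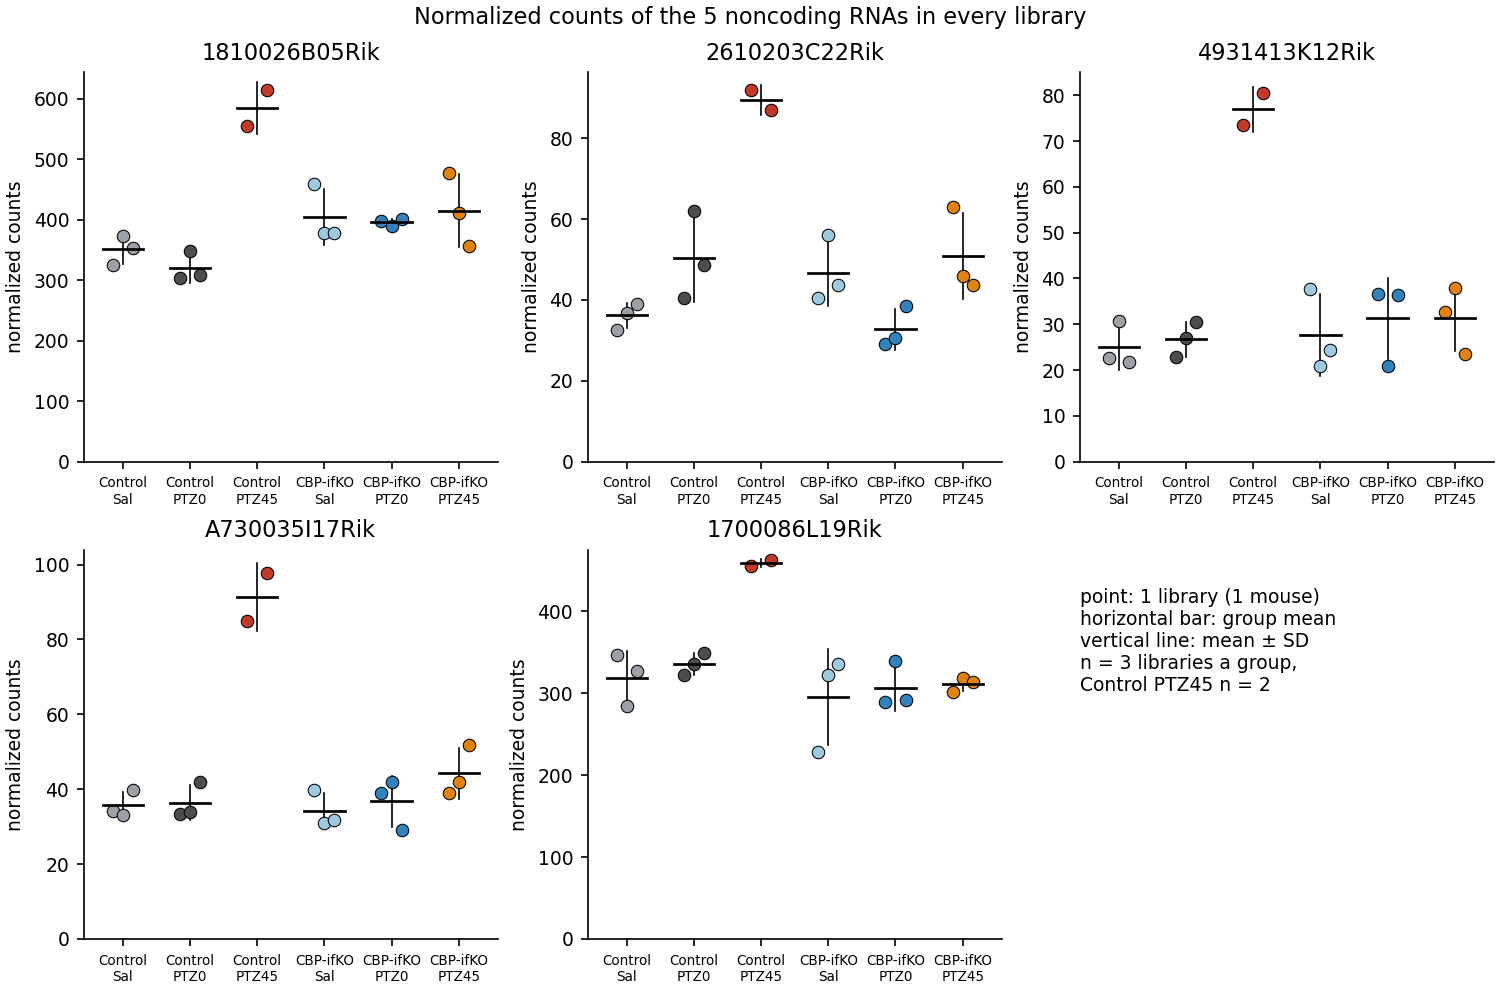
Normalized counts (vertical axis, from 0) of each transcript in each of the 17 libraries (points) by group, with the group mean (bar) and SD (vertical line). The 2 Control PTZ45 libraries lie above the other 15 in every panel, from 73.4 and 80.4 against at most 38.0 for 4931413K12Rik to 455 and 462 against at most 349 for 1700086L19Rik.

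Per kilobase of exon, the scale on which genes can be compared, 1700086L19Rik was the most abundant of the 5 in Control Sal, with 297 ± 29.3 normalized counts per kb (SD, n = 3). 1810026B05Rik followed with 43.8 ± 2.99, 4931413K12Rik with 19.5 ± 3.90, A730035I17Rik with 14.9 ± 1.47 and 2610203C22Rik with 7.37 ± 0.640 (SD, n = 3 each). The spreads of 4931413K12Rik and A730035I17Rik overlapped in Control Sal. In Control PTZ45 they stood at 60.0 ± 3.86 and 38.2 ± 3.81 (SD, n = 2). The 3 rarer transcripts rested on 10 to 104 raw counts per library, against 155 to 716 for 1810026B05Rik and 1700086L19Rik.

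In controls the log2 fold change of PTZ45 against Sal was 0.73 (SE 0.13) for 1810026B05Rik, 1.31 (SE 0.30) for 2610203C22Rik, 1.63 (SE 0.35) for 4931413K12Rik, 1.34 (SE 0.30) for A730035I17Rik and 0.51 (SE 0.14) for 1700086L19Rik. All 5 were among the genes called higher at an adjusted p under 0.05, which were 0.939% of the genes tested, and since this contrast may have chosen them nothing is read from that count. Against Control PTZ0, the kindled mice given saline, the values were 0.87 (SE 0.13), 0.84 (SE 0.29), 1.52 (SE 0.34), 1.32 (SE 0.31) and 0.45 (SE 0.13) in the same order. Here DESeq2 called 4 of the 5 higher, all but 2610203C22Rik (adjusted p = 0.18), beside 1.18% of all genes tested, and edgeR called all 5, 2610203C22Rik among them (adjusted p = 0.0367). The 4 calls fell to between 1 and 3 on leaving out any single library, to 1 with a replicate block and to 0 with GC correction and block. Against Sal, 2 of the 5 calls were left without Control Sal replicate 1. Without Control Sal replicate 2, the 1 library of that contrast high in choroid plexus markers (described below), the call of 1700086L19Rik was lost (DESeq2 adjusted p = 0.547). Leaving out either Control PTZ45 library leaves 1 in that group. Over all alternatives the log2 fold changes against Sal ran from 0.60 to 0.81, 1.22 to 1.37, 1.54 to 1.79, 1.24 to 1.59 and 0.44 to 0.58 in the same order, still as a description. Both contrasts use the same 2 Control PTZ45 libraries, which were run on another lane than Control Sal and Control PTZ0, so that treatment and lane cannot be told apart in controls.

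Kindling alone gave no call among the 5 transcripts in controls. The log2 fold change of Control PTZ0 against Sal, both on the same lane, was -0.13 (SE 0.11) for 1810026B05Rik, 0.11 (SE 0.37) for 4931413K12Rik, 0.02 (SE 0.31) for A730035I17Rik and 0.06 (SE 0.12) for 1700086L19Rik. 2610203C22Rik stood at 0.47 (SE 0.29), with no overlap between libraries. None of the 5 was called by DESeq2 or by edgeR and none had an unadjusted p under 0.05, beside 0.00843% of all genes called in either direction. The Control Sal libraries were part of the choice, so these values too are given as a description.

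In CBP-ifKOs no rise of the 5 transcripts was detected after PTZ. By the study, PTZ came to induce seizures in all kindled controls, while no CBP-ifKO reached the stage of progressive seizures. The genotypes thus differed in seizures as well as in Crebbp, and the part of seizures in these values was not tested. The label of the choice, a rise with PTZ, does not name the CBP-ifKO libraries. Their results were known when the choice was made, and the tests below carry that limit. PTZ45 against Sal gave 0.03 (SE 0.14, 95% interval -0.25 to 0.30) for 1810026B05Rik, 0.16 (SE 0.31, -0.44 to 0.76) for 2610203C22Rik, 0.14 (SE 0.40, -0.64 to 0.92) for 4931413K12Rik, 0.35 (SE 0.33, -0.31 to 1.0) for A730035I17Rik and 0.08 (SE 0.16, -0.23 to 0.39) for 1700086L19Rik. The libraries of both groups overlapped for all 5, and the sign of the value turned under at least 1 alternative for each transcript except A730035I17Rik, most often for 1810026B05Rik, in 5 of 14. DESeq2 and edgeR each called 0 of the 5, none had an unadjusted p under 0.05 (0.301 to 0.851), and each had an adjusted p of 1 in DESeq2, beside 0.086% of all genes called higher.

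The kindled CBP-ifKOs, PTZ45 against PTZ0, were sequenced on 1 lane and so give the same comparison without a lane change. The log2 fold changes were 0.07 (SE 0.13, 95% interval -0.18 to 0.31) for 1810026B05Rik, 0.01 (SE 0.38, -0.73 to 0.76) for 4931413K12Rik, 0.28 (SE 0.32, -0.36 to 0.91) for A730035I17Rik and 0.02 (SE 0.13, -0.23 to 0.27) for 1700086L19Rik. For 2610203C22Rik the value was 0.62 (SE 0.32, -0.01 to 1.26), and the 3 PTZ45 libraries lay above the 3 PTZ0 libraries. Its unadjusted p was 0.0532 and its adjusted p 1 in DESeq2. DESeq2 and edgeR called none of the 5, beside 0.0607% of all genes called higher. CBP-ifKO PTZ0 against Sal gave -0.46 (SE 0.33) for 2610203C22Rik, whose libraries lay lower, and -0.04 to 0.13 for the other 4. Again DESeq2 and edgeR called none, and none had an unadjusted p under 0.05, beside 0.0112% of all genes called in either direction.

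Other genes did rise after PTZ in CBP-ifKOs. Fos, which encodes an AP-1 subunit, stood at 26.9, 33.2 and 34.0 normalized counts in CBP-ifKO Sal and at 163, 250 and 288 in CBP-ifKO PTZ45, a log2 fold change of 2.91 (SE 0.26, DESeq2 adjusted p = 1.33e-25). In controls Fos rose from 28.1, 28.3 and 62.4 in Sal to 2910 and 2480 in PTZ45, by 6.08 (SE 0.48). Npas4, a neuron-specific activity-dependent factor, rose by 2.28 (SE 0.28, DESeq2 adjusted p = 1.11e-12) in CBP-ifKOs and by 6.16 (SE 0.50) in controls. Of a list of 25 immediate early genes, put together with earlier results of these data known, 23 rose in controls and 9 in CBP-ifKOs for PTZ45 against Sal, beside 0.939% and 0.086% of all genes called higher, with medians of 2.45 and 0.33 and none lower, while the median over all genes tested was 0.01 and 0.00.

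**Figure D3:**
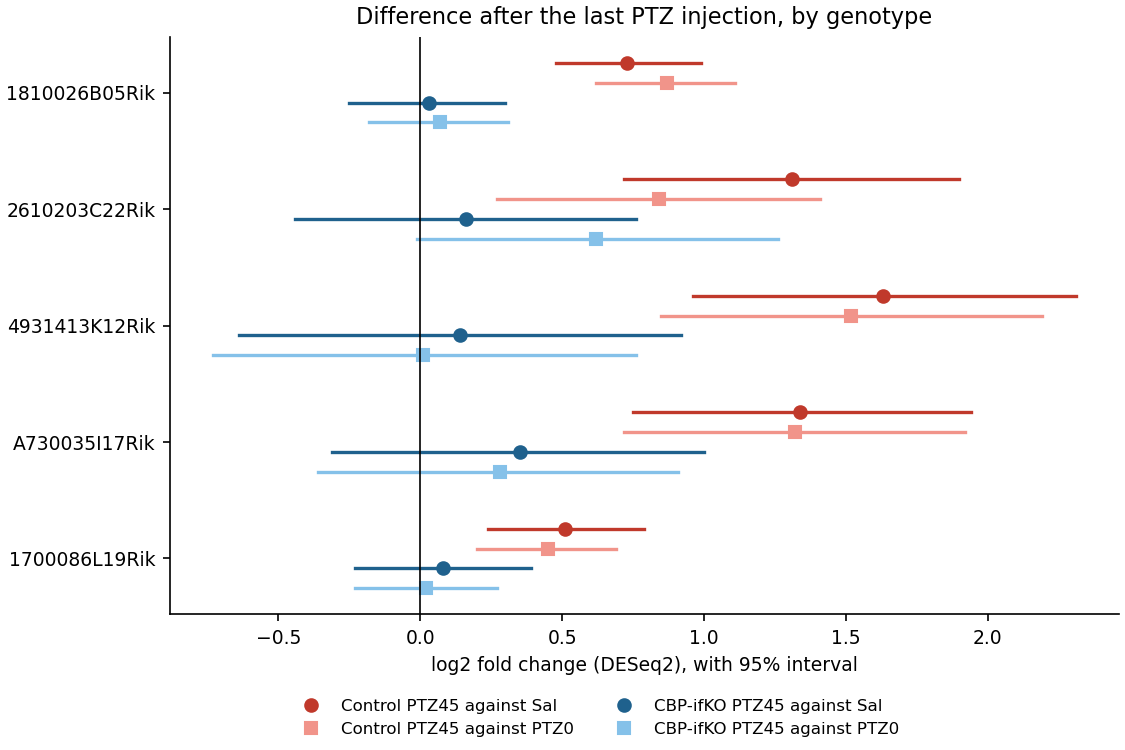
Log2 fold change (points) with 95% interval (lines) of each transcript for PTZ45 against Sal (circles) and against PTZ0 (squares), in controls (red shades) and CBP-ifKOs (blue shades). The control values run from 0.45 to 1.63 and are a description of the choice, and the CBP-ifKO values run from 0.01 to 0.62 with intervals that all include 0.

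Between genotypes none of the 5 transcripts was called in saline. CBP-ifKO against Control in Sal gave 0.21 (SE 0.13) for 1810026B05Rik, 0.33 (SE 0.31) for 2610203C22Rik, 0.20 (SE 0.40) for 4931413K12Rik, -0.05 (SE 0.34) for A730035I17Rik and -0.13 (SE 0.16) for 1700086L19Rik, where DESeq2 and edgeR called 0 of the 5, none had an unadjusted p under 0.05, and 2.04% of all genes were called in either direction. The CBP-ifKO Sal libraries of 1810026B05Rik and 2610203C22Rik all lay above those of Control Sal. Of the 15 neighbouring coding genes described below, 1 had libraries that all lay above and 3 had libraries that all lay below. In PTZ0 1810026B05Rik stood higher in CBP-ifKOs by 0.31 (SE 0.11) and 2610203C22Rik gave -0.60 (SE 0.31), both with no overlap of libraries, and DESeq2 called neither of the 2 transcripts that had an adjusted p, 1810026B05Rik and 1700086L19Rik, beside 6.68% of all genes called in either direction. The other 3 were left without an adjusted p by the independent filtering of DESeq2, and edgeR called 1810026B05Rik (adjusted p = 0.0464). At an unadjusted p under 0.05 there was 1.

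In PTZ45 the 5 transcripts were lower in every CBP-ifKO library than in both control libraries. The same held for 6 of the 15 neighbouring coding genes described below, and 1 was higher in every CBP-ifKO library. The log2 difference was -0.49 (SE 0.15) for 1810026B05Rik, -0.81 (SE 0.31) for 2610203C22Rik, -1.28 (SE 0.35) for 4931413K12Rik, -1.04 (SE 0.31) for A730035I17Rik and -0.56 (SE 0.14) for 1700086L19Rik. The mean of CBP-ifKO PTZ45 was 70.9% of that of Control PTZ45 for 1810026B05Rik, 56.9% for 2610203C22Rik, 40.8% for 4931413K12Rik, 48.5% for A730035I17Rik and 67.9% for 1700086L19Rik. Of the 5 transcripts, 4 were called lower, beside 2.82% of all genes. The calls fell to 0 without CBP-ifKO PTZ45 replicate 2, the 1 library of this contrast high in choroid plexus markers. The interaction of genotype with PTZ45 over Sal was -0.71 (SE 0.19), -1.14 (SE 0.39), -1.51 (SE 0.49), -1.01 (SE 0.41) and -0.43 (SE 0.21) in the order 1810026B05Rik, 2610203C22Rik, 4931413K12Rik, A730035I17Rik and 1700086L19Rik. DESeq2 called 1 of the 5 interactions, that of 1810026B05Rik, beside 0.329% of all genes called lower. Since the transcripts were selected for high values in the Control PTZ45 libraries, these differences are partly fixed by the choice and no test is drawn from them.

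Genotype moved with lane in each of these contrasts and with the sums of some cell type markers. CA1 pyramidal markers (3 genes) summed to 3570 to 4290 normalized counts in control libraries and 2400 to 3160 in CBP-ifKO libraries, CA3 markers (3 genes) to 1700 to 2050 against 1220 to 1730, and interneuron markers (5 genes) to 6230 to 6610 against 5540 to 6240. Dentate granule cell markers (5 genes) went the other way in PTZ0, at 3190 to 3350 in controls and 3570 to 3900 in CBP-ifKOs, and overlapped between genotypes in Sal and in PTZ45. None of these genes was at 0 in any group. Fewer cells of a type and less RNA per cell cannot be told apart in such tissue, and their part in the results was not tested. Choroid plexus markers (5 genes), of a tissue that borders the hippocampus, summed to 10700 to 44000 in 5 libraries, 1 in each group except Control PTZ45, and to 435 to 1140 in the other 12. With these 5 libraries left out, the CBP-ifKO contrasts still gave 0 calls among the 5 transcripts. Crebbp, the targeted gene, stood at 1060 to 1340 normalized counts in the 9 CBP-ifKO libraries and at 1820 to 2430 in the 8 control libraries.

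The coding genes beside the 5 transcripts were not called after PTZ in either genotype. The rule for neighbours took every coding gene that overlaps a transcript and the nearest coding gene on each side, 15 in all. None of the 15 was called by DESeq2 or edgeR in PTZ45 against Sal or against PTZ0 in either genotype, whereas at an unadjusted p under 0.05 there were 0 and 1 in controls (Chd2) and 1 and 0 in CBP-ifKOs (Rgma). Of all genes tested, 1.17% and 1.25% were called in either direction in controls, against Sal and against PTZ0, and 0.294% and 0.0872% in CBP-ifKOs, so that a count of 0 among the 14 with an adjusted p is near that background and says nothing particular of the neighbours. Rgma, which encodes a repulsive guidance molecule, gave -0.54 (SE 0.20, DESeq2 adjusted p = 0.593) in CBP-ifKO PTZ45 against Sal. It gave -0.41 (SE 0.20) in CBP-ifKO PTZ0 against Sal, without a last PTZ injection, and -0.13 (SE 0.18) in PTZ45 against PTZ0, with no overlap of libraries in any of these contrasts. These genes were chosen by position, but Chd2, Vxn, Adhfe1 and Prdm8 share exonic bases with the transcripts, so that in contrasts with Control PTZ45 their counts are not wholly free of the choice. One of them, the predicted gene Gm11042 beyond 1700086L19Rik, had 0 to 2 counts in a group and no adjusted p in the PTZ45 contrasts. For the other 14 the control log2 fold changes of PTZ45 against Sal ran from -0.18 (Rgma) to 0.47 (Fgf5).

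Chd2 was followed most closely because 1810026B05Rik is known to act on it. It stood at 1570, 1720 and 1750 normalized counts in Control Sal, 1610, 1610 and 1700 in Control PTZ0, and 1750 and 2070 in Control PTZ45. In CBP-ifKOs it stood at 2040, 1920 and 1800 in Sal, 1880, 2000 and 1870 in PTZ0, and 1970, 1910 and 1830 in PTZ45. Chd2 after PTZ gave a log2 fold change of 0.18 (SE 0.10, 95% interval -0.02 to 0.38, DESeq2 adjusted p = 0.746) in controls against Sal and 0.21 (SE 0.09, DESeq2 adjusted p = 0.351) against PTZ0. Both values turned on single Control PTZ45 libraries. Without replicate 1 they were 0.30 against Sal (DESeq2 adjusted p = 0.366) and 0.33 against PTZ0 (DESeq2 adjusted p = 0.00636), and without replicate 2 they were 0.05 and 0.09 (DESeq2 adjusted p = 1 for both). GC correction gave 0.11 and 0.15. In CBP-ifKOs PTZ45 against Sal gave -0.02 (SE 0.09). Between genotypes Chd2 was not called in Sal, at 0.19 (DESeq2 adjusted p = 0.359), or in PTZ45, at 0.00 (SE 0.10, DESeq2 adjusted p = 0.999). It was higher in CBP-ifKOs in PTZ0, by 0.23 (SE 0.07, DESeq2 adjusted p = 0.0153), a call that was lost without the 5 libraries high in choroid plexus markers (adjusted p = 0.515), under a replicate block (adjusted p = 0.0904) and on leaving out any of 5 single libraries. Per kilobase, 1810026B05Rik amounted to 37.3% ± 1.35 of Chd2 in Control Sal (SD, n = 3), 54.9% ± 2.59 in Control PTZ45 (SD, n = 2) and 38.8% ± 4.28 in CBP-ifKO PTZ45 (SD, n = 3).

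Vxn, whose exons overlap those of 2610203C22Rik, was the neighbour called between genotypes in every treatment. Control libraries held 2910 to 3390 normalized counts and CBP-ifKO libraries 1830 to 2390, with no overlap in any treatment. Vxn was lower in CBP-ifKOs by 0.63 (SE 0.09, DESeq2 adjusted p = 7.58e-09) on the log2 scale in Sal, by 0.53 (SE 0.06, DESeq2 adjusted p = 5.78e-14) in PTZ0 and by 0.52 (SE 0.10, DESeq2 adjusted p = 1.12e-05) in PTZ45, and was called in each of the alternatives that gave it an adjusted p. PTZ45 gave no call of Vxn, with 0.01 (SE 0.09) for controls and, in CBP-ifKOs, 0.12 (SE 0.10) against Sal. 2610203C22Rik was not called between genotypes in saline (above), and per kilobase it came to 0.771% ± 0.122 of Vxn in Control Sal and 1.51% ± 0.178 in CBP-ifKO Sal (SD, n = 3 each). The other neighbours of 2610203C22Rik, Adhfe1, Mybl1, a transcription factor of the Myb family, and Rrs1, a ribosome assembly factor, had control log2 fold changes of 0.25 (SE 0.20), 0.11 (SE 0.29) and 0.17 (SE 0.26) for PTZ45 against Sal.

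Pitpna, the host of 4931413K12Rik, held 2670 to 2930 normalized counts in Control Sal and 2880 and 3260 in Control PTZ45, a log2 fold change of 0.11 (SE 0.09, 95% interval -0.06 to 0.29). Of the Control PTZ45 libraries, 1 lay within the range of Control Sal and the other above it. Per kilobase, 4931413K12Rik amounted to 2.88% ± 0.725 of Pitpna in Control Sal (SD, n = 3), 8.09% ± 0.189 in Control PTZ45 (SD, n = 2) and 3.34% ± 0.922 in CBP-ifKO PTZ45 (SD, n = 3). Slc43a2, an amino acid transporter gene, and Inpp5k, an inositol phosphatase gene, lie on either side and gave 0.11 (SE 0.12) and -0.07 (SE 0.13).

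Prdm8 stood at 297, 323 and 311 normalized counts in Control Sal and at 332 and 405 in Control PTZ45, so that its libraries did not overlap, and its log2 fold change was 0.24 (SE 0.15, DESeq2 adjusted p = 0.782). In CBP-ifKOs it gave -0.00 (SE 0.14). A730035I17Rik rose per kilobase from 23.4% ± 2.52 of Prdm8 in Control Sal (SD, n = 3) to 50.4% ± 2.11 in Control PTZ45 (SD, n = 2), and was at 29% ± 4.65 in CBP-ifKO PTZ45 (SD, n = 3). Without knowledge of the strand, reads of A730035I17Rik may be counted in the exons of Prdm8, or the reverse. The more distant Fgf5, a fibroblast growth factor gene, and Antxr2, the gene of an anthrax toxin receptor, were not called.

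Syt16 held 1040 to 1100 normalized counts in Control Sal and 1060 and 1070 in Control PTZ45, a log2 fold change of -0.00 (SE 0.10), while 1700086L19Rik stood at 284 to 346 and at 455 and 462 in the same libraries. A gene that is not a coding neighbour lies immediately downstream on the same strand, the long intergenic RNA Dbpht2, and it was picked after its values were seen. Dbpht2 held 1330, 1260 and 1320 normalized counts in Control Sal, 1550 and 1890 in Control PTZ45, 1130, 1310 and 1380 in CBP-ifKO Sal and 1480, 1310 and 1350 in CBP-ifKO PTZ45. Its log2 fold change was 0.39 (SE 0.10) for controls and, in CBP-ifKOs, 0.11 (SE 0.10). Gm44686, a transcript antisense to 1810026B05Rik that was also picked after its values were seen, gave 0.85 (SE 0.34) for controls and, in CBP-ifKOs, 0.46 (SE 0.37). Mir22hg, a noncoding RNA also taken outside the rule for named genes, gave 0.40 (SE 0.14) for controls. In CBP-ifKOs it gave 0.29 (SE 0.15, DESeq2 unadjusted p = 0.0468), and it was called in neither genotype.

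**Figure D4:**
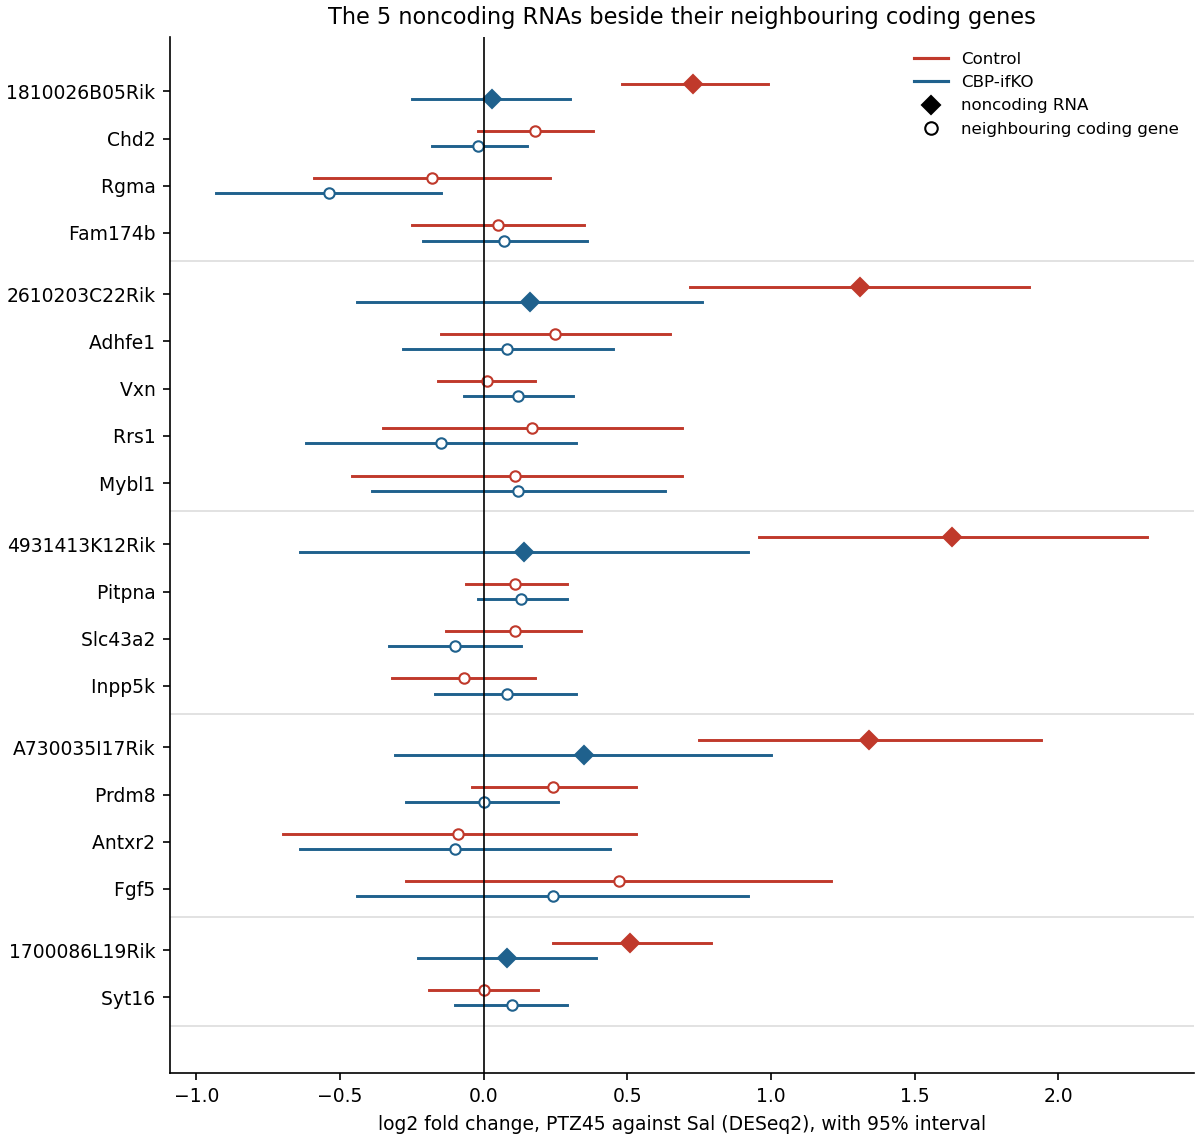
Log2 fold change of PTZ45 against Sal with 95% interval for each transcript (filled diamonds) and its neighbouring coding genes (open circles), in controls (red) and CBP-ifKOs (blue). Gm11042, with 0 to 2 counts in a group, is not drawn. The red diamonds lie between 0.51 and 1.63, and the red circles between -0.18 and 0.47.

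**Figure D5:**
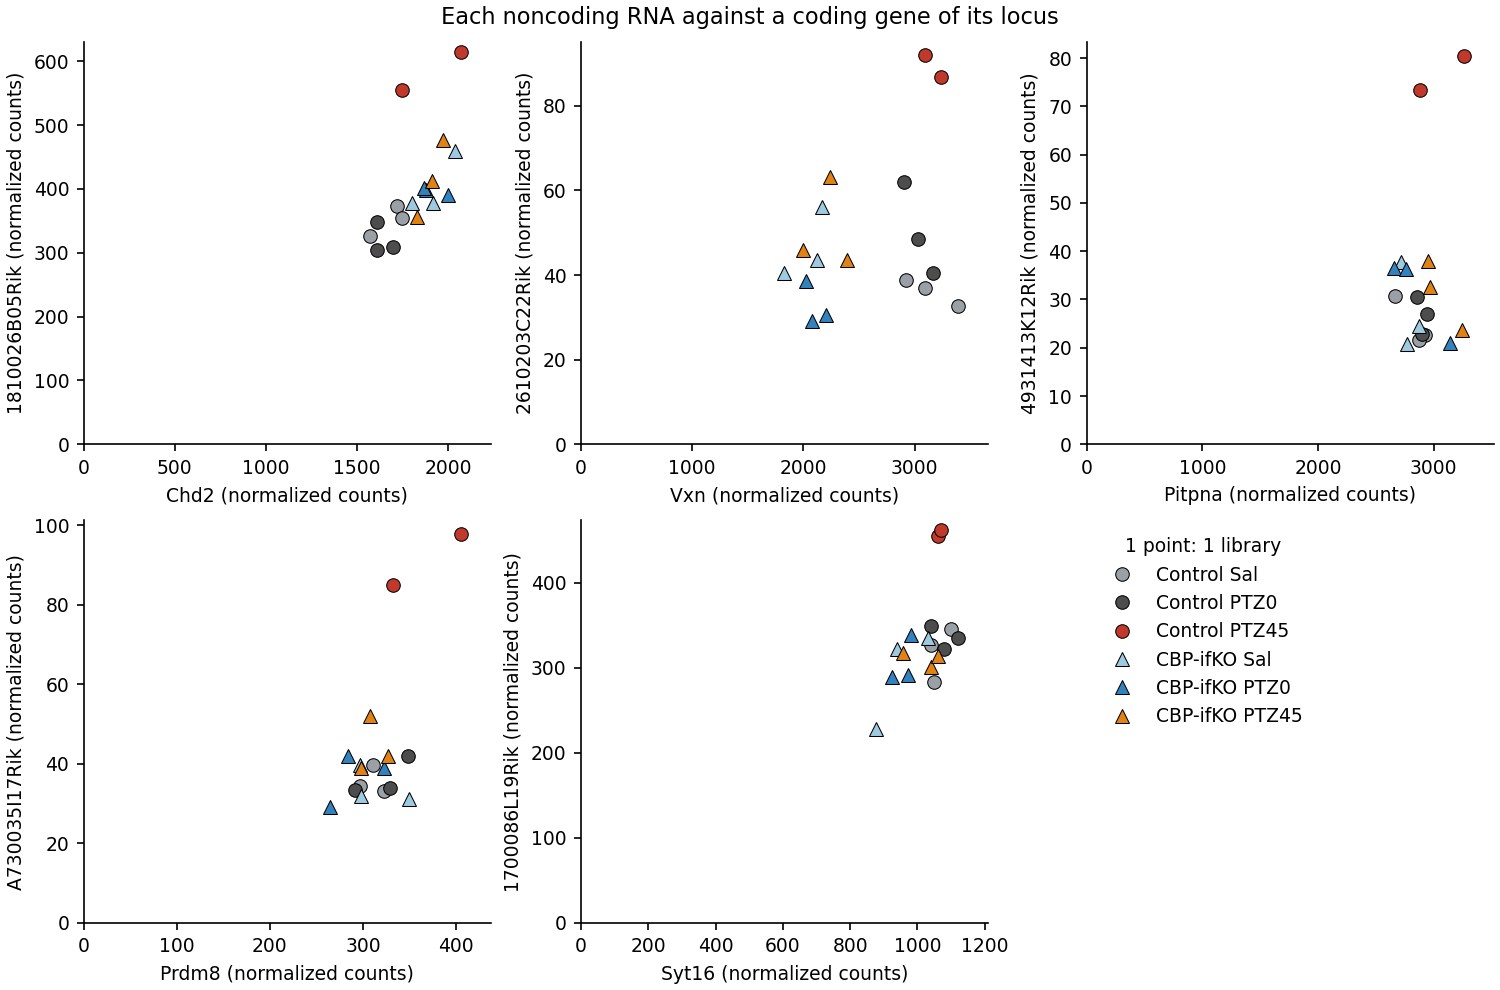
Normalized counts of each transcript (vertical axis) against a coding gene of its locus (horizontal axis), 1 point per library, both axes from 0. The 2 Control PTZ45 points (red circles) lie highest in every panel. On the horizontal axis 1 of them lies above all other libraries for Chd2 (2070 against at most 2040), Pitpna (3260 against at most 3250) and Prdm8 (405 against at most 349). The CBP-ifKO points (triangles) lie at lower Vxn than the control points.

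Over the 17 libraries, the genes whose pattern was most like each transcript were found by Pearson's r of log2(normalized count + 1) among the 15835 genes whose mean was 20 or more. These r are descriptions over libraries that share the Control PTZ45 contrast. For A730035I17Rik they were Tiparp, an ADP-ribosyltransferase gene (r = 0.95), the AP-1 gene Fosb (0.95) and the RNA-binding protein gene Hnrnpa2b1 (0.94). For 1810026B05Rik they were Gm44676 (0.90), Ythdc1, which encodes a nuclear reader of RNA methylation (0.88), and Gm15381 (0.87). For 4931413K12Rik they included Ppp1r15a, a stress-induced phosphatase regulator (0.87), and again Gm15381 (0.86). For 2610203C22Rik they were Gm42856 (0.88), the antiproliferative gene Tob1 (0.86) and Piga, of glycolipid anchor synthesis (0.84). For 1700086L19Rik they were 2810029C07Rik (0.91), Gm44847 (0.89) and Plk2, an activity-induced polo-like kinase (0.87). Spearman's rho over the same libraries was lower for each of these genes, from 0.86 for Gm44676 down to 0.58 for Ppp1r15a, which by rho stood at position 241 among the genes most like 4931413K12Rik. Fosb stood at position 123 for A730035I17Rik and Plk2 at 118 for 1700086L19Rik. Among the coding neighbours the highest r were 0.67 for 1810026B05Rik with Chd2, 0.61 for A730035I17Rik with Prdm8 and 0.59 for 1700086L19Rik with Syt16, at positions 303, 718 and 964 of the 15835 genes, and the r of 4931413K12Rik with Pitpna was 0.08. Spearman's rho was 0.77 with Chd2, 0.31 with Prdm8, 0.55 with Syt16 and -0.05 with Pitpna. By rho Chd2 was thus as like 1810026B05Rik as Ythdc1 (0.76) and Gm15381 (0.75). Among the 5 transcripts r ran from 0.35, between 1810026B05Rik and 1700086L19Rik, to 0.84, between 1810026B05Rik and 4931413K12Rik. By rank these pairs gave a Spearman's rho of -0.11 and 0.71, and 4931413K12Rik with 1700086L19Rik also gave -0.11 (r = 0.46).

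Other noncoding RNAs give the frame for these 5. Of 9914 genes annotated as long noncoding RNA, 1653 had an adjusted p in Control PTZ45 against Sal, of which 18 were called higher and 2 lower (1.09% and 0.121%), with a median log2 fold change of -0.03 against 0.01 over all genes tested. Of the 5 transcripts, 4 are in that class, and 1700086L19Rik is not, being annotated as a pseudogene. In CBP-ifKO PTZ45 against Sal none was called by DESeq2 among the 2386 with an adjusted p, beside 0.086% of all genes called higher, so that nothing particular to this class is read from it. In a list of 24 well-known long noncoding RNAs, 1 was called higher in Control PTZ45 against Sal, 5 in Control PTZ45 against PTZ0 and 0 in both CBP-ifKO contrasts, beside 0.939%, 1.18%, 0.086% and 0.0607% of all genes. The counts of 0 and 1 in so short a list are near that background. Of the 17 long noncoding RNAs called higher in Control PTZ45 against Sal whose nearest coding gene was also tested, 2 had that coding gene called higher, and none of these 2 pairs involved the transcripts described here. For the 1503 not called higher, 14 had a nearest coding gene called higher (0.931%).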

How the data were processed

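Total RNA of 17 mouse hippocampi, 1 mouse per library, was sequenced as single-end reads. Per the labels and the study's methods, the authors trimmed reads with Trim Galore 0.6.4, checked them with FastQC 0.11.8, aligned them to GRCm38 with STAR 2.6.1, kept mapping qualities above 10 and counted exonic reads with Rsubread. The deposited values are raw counts per gene, not normalized. Of 18 count columns, 1, whose header carries the name of the Control PTZ45 columns, matched no sample and was not used. Depth was 5831992 to 18735643 counts per library, and p-values cover the spread between mice of a group.

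Groups were compared 2 at a time with the Wald test of DESeq2 1.42.0 (R 4.3.3), the version of the authors being DESeq2 1.30.1, over all genes with at least 1 count in the libraries compared. A gene was called at a Benjamini-Hochberg adjusted p under 0.05, with independent filtering. The interaction was fitted over the 4 groups Sal and PTZ45 of both genotypes. Alternatives were edgeR 4.0.16 (quasi-likelihood test), TMM size factors, a filter of 10 counts in 2 libraries, 1 fit of all 17 libraries, a replicate block, a GC correction (loess), both together, and leaving out each library. Leaving out the libraries high in choroid plexus markers was chosen after seeing the data. The scripts were tested on simulated data.

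The transcripts and the gene lists were chosen with earlier results of these data known. Named genes were the 5 transcripts, the coding genes overlapping them or nearest on each side (GENCODE M21, to which 99.4% of gene IDs matched), the 3 genes most like each by Pearson's r, Fos, Npas4 and Crebbp. Dbpht2 and Gm44686 were added after their values were seen, and Mir22hg was likewise outside this rule. Of the genes so found, 1 named by the rule is not reported here.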

Additional observations from a re-analysis of the deposited data

Results flagged for a closer look

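The difference between genotypes in the PTZ45 response of 1810026B05Rik, PTZ45 against Sal, passed the threshold of the interaction term. The interaction was -0.71 on the log2 scale (SE 0.19, DESeq2 adjusted p = 0.0497), with a log2 fold change of 0.73 in controls and 0.03 in CBP-ifKOs. The transcript was chosen for its rise in control libraries, which enter the interaction, so the value is a description and no evidence of a difference, and lane and group cannot be told apart in it. Of 19 alternatives, 5 kept the call and 14 lost it, and the adjusted p ran from 0.0104 to 1.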

How the results depend on the processing

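In CBP-ifKO PTZ45 against Sal and against PTZ0, CBP-ifKO PTZ0 against Sal, Control PTZ0 against Sal and CBP-ifKO against Control in Sal, 0 of the 5 transcripts were called in any alternative run. In CBP-ifKO PTZ45 against Sal the uncalled values changed sign in 5 of 14 alternatives for 1810026B05Rik and 2 of 14 for 1700086L19Rik. The calls that rest on the 2 Control PTZ45 libraries were less stable, and the causes were not tested. Leaving out either of these libraries leaves that group without a replicate. The log2 fold changes of the 5 transcripts in these contrasts kept their sign in every alternative. Control PTZ45 against Sal gave 5 calls, 0 to 4 on leaving out single libraries, 0 with the replicate block and 0 with GC correction and block. Control PTZ45 against PTZ0 gave 4, 5 with edgeR, 1 to 3 on leaving out single libraries, 1 with the replicate block and 0 with GC correction and block. CBP-ifKO against Control in PTZ45 gave 4, 0 with the replicate block and 0 with GC correction and block. It gave 0 without CBP-ifKO PTZ45 replicate 2, its 1 library high in choroid plexus markers. The interaction gave 1, 0 to 1 on leaving out single libraries, and 0 with edgeR, with TMM size factors, with the replicate block, with GC correction and block, and without the libraries high in choroid plexus markers. CBP-ifKO against Control in PTZ0 gave 0 with DESeq2 and 1 with edgeR. Whether replicate numbers pair the mice is not given in the sources used here. Deviations of same-numbered libraries from their group means correlated at -0.52 to 0.53 (median -0.061). Those of other pairs correlated at -0.51 to 0.72 (median 0.031), which cannot show whether mice were paired. The replicate block follows the numbers in the titles, while the header of Control PTZ45 replicate 2 carries a 3. Calls lost under the block are therefore given as counts only. Of the log2 fold changes under alternatives, 2542 stayed on the same side of the threshold, 96 lost a call and 3 gained one. The 3 rarer transcripts, at 10 to 104 counts per library, had SEs of 0.30 to 0.40 in PTZ45 against Sal, which limits what could be detected.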
